A study of Cavia porcellus with 10 samples.

Results

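Squamous epithelium is built in layers. Cells divide in the basal layer, move up while they make suprabasal keratins, adhesion proteins and surface enzymes, and end as flat cells with a crosslinked protein envelope. In rodents the epithelium facing the vagina is known to thicken and cornify under estrogen at estrus and to turn toward mucus secretion during pregnancy. The 9 genes described here, measured in the guinea pig cervix, are known from squamous or other surface epithelia: LY6D, LYPD3, SFN, VSIG8, TMPRSS11D, RHCG, CRCT1, IFNK and NOXO1. They were chosen by their measured values, for a lower level at mid-pregnancy than in the non-pregnant animals or for a higher level toward term. Their own differences between the stages are therefore given as a description, without a test.

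RNA was sequenced from the vaginal portion of the cervix of 10 Hartley guinea pigs. Of these, 3 were not pregnant and in estrus (NP), 3 were in mid-pregnancy (MT, 43.6 ± 0.5 days of gestation, SD) and 4 were in late pregnancy but not in labor (LT, 65.2 ± 1.2 days, SD). Between 18730665 and 27881572 reads were counted on genes per animal. Levels are in TPM (transcripts per 1000000 transcripts), a measure per transcript length that sums to 1000000 in each animal, so that genes can be compared with each other within an animal. All 9 genes are among the 25028 genes with a row and among the 12645 tested, whose mean reached 3 TPM in 1 stage or more. That filter is passed by a gene through its highest stage alone. Differences are between means of log2(TPM + 1), a scale that understates the change of low genes. A gene is said to be called when its limma adjusted p was under 0.05 over all 12645 genes.

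All 9 genes had a lower mean in MT than in NP, and toward term they parted. LY6D, LYPD3, SFN and VSIG8 had LT means between 96.1% and 345% of their NP means. TMPRSS11D, RHCG, CRCT1, IFNK and NOXO1 had LT means between 0% and 2.57% of their NP means. Without NP replicate 1, which was the highest NP animal in 9 of 9 genes, these ranges were 185% to 665% and 0% to 6.86%. The working description of the genes as lost and then partly regained does not describe all 9. SFN was never near absence, TMPRSS11D was higher in LT than in MT but far under its NP level, and RHCG, CRCT1, IFNK and NOXO1 stayed low with overlapping MT and LT animals. The division was made after the values were seen, so no test was run on it. Since whole tissue was sequenced, fewer squamous cells and less RNA per squamous cell cannot be told apart.

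**Figure D1:**
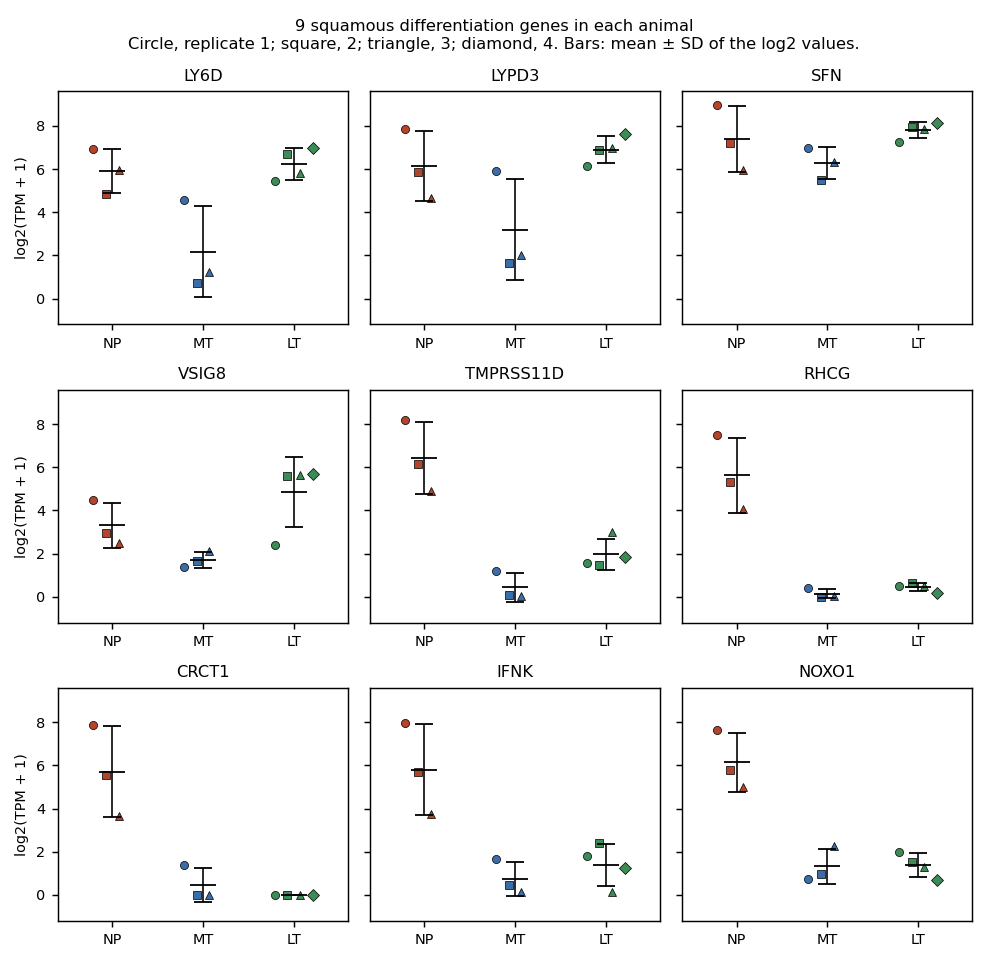
Levels of the 9 genes in each animal, as log2(TPM + 1) on the vertical axis, with NP, MT and LT on the horizontal axis. Points are animals and bars are the mean ± SD of the log2 values. The LT animals of LY6D, LYPD3 and SFN lie within the range of the NP animals or just above it, 3 of the 4 LT animals of VSIG8 lie above every NP animal and LT replicate 1 below, and those of the other 5 genes lie below every NP animal.

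LYPD3, also called C4.4A, is a glycolipid-anchored surface protein of the Ly6/uPAR family that marks suprabasal keratinocytes. Its TPM was 234, 57.5 and 24.6 in the NP animals, 58.5, 2.16 and 3.08 in the MT animals and 68.8, 117, 125 and 199.5 in the LT animals. MT replicate 1 lay at an NP level while the other 2 MT animals were near 3 TPM, so NP and MT overlapped. All 4 LT animals lay above every MT animal and above NP replicates 2 and 3, and none lay above NP replicate 1. The mean was 105.3 ± 113 TPM in NP, 21.3 ± 32.3 in MT and 127.6 ± 54.0 in LT (SD, n = 3, 3 and 4). From NP to MT the log2 difference was -2.95 ± 1.08 and from MT to LT it was 3.71 ± 1.01 (SE).

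LY6D, a second protein of the same family and a surface antigen of stratified epithelia, followed LYPD3 closely. It stood at 121, 28.0 and 60.5 TPM in NP, at 23.0, 0.625 and 1.38 TPM in MT and at 42.5, 103, 54.9 and 127 TPM in LT. Every MT animal was below every NP and every LT animal, and again MT replicate 1 was the highest of its stage, at 23.0 times the mean of the other 2. Those 2 low values rested on 4 and 12 reads. The log2 difference was -3.73 ± 0.92 from NP to MT and 4.06 ± 0.86 from MT to LT (SE), the largest MT to LT difference of the 9 genes. From NP to LT it was 0.32 ± 0.86, well within the spread of the animals, and its sign depended on a single animal, since it was -0.20 without NP replicate 2.

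SFN encodes 14-3-3 sigma, the epithelial member of the 14-3-3 adaptor proteins, which is induced as keratinocytes stop dividing. It was the most abundant of the 9 genes in every stage and had the smallest difference from NP to MT. In NP it was measured at 504, 148 and 60.5 TPM, in MT at 127, 44.6 and 79.4 TPM and in LT at 152, 244, 234 and 283 TPM. The NP and MT animals overlapped, and the lowest LT animal stood above the highest MT animal. The log2 differences were -1.10 ± 0.65 from NP to MT, 1.53 ± 0.61 from MT to LT and 0.43 ± 0.61 from NP to LT (SE). The last of these was -0.29 without NP replicate 3, and the first was -0.30 without NP replicate 1. At 83.5 ± 41.2 TPM in MT (SD, n = 3), SFN was never near absence, with 560 reads or more in each animal.

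VSIG8, a membrane protein with immunoglobulin domains known from cornified structures such as hair and nail, had the highest LT mean of the 9 relative to NP, at 345% of its NP mean. Without NP replicate 1 this was 665%, beside 311% for LYPD3, 219% for SFN and 185% for LY6D. Its TPM was 21.6, 6.76 and 4.66 in NP, 1.58, 2.17 and 3.30 in MT and 4.28, 47.5, 49.0 and 51.1 in LT. In LT 3 animals lay above every NP animal, while LT replicate 1, on 123 reads, lay below all NP animals and at 8.70% of the mean of the other LT animals. The MT animals were all below the NP and the LT animals. The log2 differences were -1.61 ± 0.84 from NP to MT and 3.13 ± 0.79 from MT to LT (SE). Without LT replicate 1 the LT mean was 49.2 TPM in place of 38.0.

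LT replicate 1 was the lowest LT animal in each of these 4 genes, at 44.9% of the mean of the other LT animals in LY6D, 46.7% in LYPD3 and 59.9% in SFN. In TMPRSS11D, RHCG, IFNK and NOXO1 another LT animal was the lowest. All 4 LT animals were above 3 TPM in LY6D, LYPD3, SFN and VSIG8.

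TMPRSS11D, the human airway trypsin-like protease, is a trypsin-like enzyme anchored in the membrane of surface epithelial cells. It had 293, 69.0 and 28.9 TPM in NP, then 1.32, 0.0483 and 0.0355 TPM in MT, which rest on 27, 1 and 1 reads. In LT it had 1.94, 1.74, 7.13 and 2.61 TPM on 58 to 230 reads. All MT animals were below all LT animals, and all LT animals were below all NP animals, so that the gene was higher at term than at mid-pregnancy and still far under its non-pregnant level. The LT mean of 3.36 ± 2.54 TPM (SD, n = 4) was 2.57% of the NP mean, and it was 2.10 TPM without LT replicate 3. The log2 differences were -5.97 ± 0.74 from NP to MT, the largest of the 9 genes on this scale, and 1.53 ± 0.69 from MT to LT (SE). As a share of the NP mean, the MT mean was at 0.358% in TMPRSS11D and lower in RHCG, at 0.143%.

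RHCG, an Rh family channel that carries ammonia across the surface membrane of kidney tubules and squamous epithelia, stayed close to absent in both stages of pregnancy. The NP animals had 182, 38.6 and 15.9 TPM. The MT animals had 0.306, 0 and 0.0319 TPM on 7, 0 and 1 reads, and the LT animals had 0.419, 0.531, 0.417 and 0.120 TPM on 14, 19, 15 and 4 reads. Every pregnant animal was below every NP animal, and MT and LT overlapped. The LT mean was 0.472% of the NP mean, or 1.36% without NP replicate 1.

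CRCT1 is a small cysteine-rich protein encoded in the epidermal differentiation complex, the gene cluster that also holds involucrin and loricrin. At 235, 45.7 and 11.7 TPM in NP, it was at 1.60 TPM in MT replicate 1 on 4 reads and had no read in the other 2 MT animals and in any of the 4 LT animals. A count of 0 allows up to 3 reads in a library, which is at most 0.822 TPM in LT. Against that limit the LT level was at least 118-fold lower than the NP mean, and at least 34.9-fold lower than the mean of NP replicates 2 and 3. This limit covers counting error only. CRCT1 was the only gene of the 9 with no read in any LT animal.

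IFNK, a type I interferon made by keratinocytes, had 251, 50.1 and 12.5 TPM in NP. In MT it had 2.13, 0.395 and 0.0969 TPM on 16, 3 and 1 reads, and in LT 2.46, 4.25, 0.0844 and 1.37 TPM on 27, 50, 1 and 15 reads. NP stood apart from both stages of pregnancy, while MT and LT overlapped. Only LT replicate 2 reached 3 TPM.

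NOXO1, the organizer subunit that brings the NADPH oxidase NOX1 into action, was measured at 200.1, 53.8 and 30.5 TPM in NP, 0.683, 0.947 and 3.78 TPM in MT and 2.94, 1.92, 1.47 and 0.610 TPM in LT. It was the flattest of the 9 genes between the 2 stages of pregnancy, with a log2 difference of 0.06 ± 0.60 (SE), which was between -0.23 (without MT replicate 1) and 0.52 (without MT replicate 3) when each animal was left out in turn. MT replicate 3 and not MT replicate 1 was the highest of its stage. From NP to LT the log2 difference was -4.76 ± 0.60 (SE), and all 4 LT animals were below all NP animals.

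Over the 9 genes, the median log2 difference was -4.81 from NP to MT, 1.53 from MT to LT and -4.42 from NP to LT. Over all genes tested these medians were -0.14, -0.16 and -0.28. The animals did not overlap and were lower in MT than in NP in 7 of the 9 genes, where 23.5% of all genes tested were so. They were higher in LT than in MT without overlap in 5 of the 9, against 10.8% of all genes, and lower in LT than in NP in 5 of the 9, against 40.6% of all genes. The choice of the genes used these differences, so the counts carry no weight as evidence.

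The 3 NP animals differed widely in all of these genes. NP replicate 1 was the highest in 9 of 9, at 2.74 (LY6D) to 8.18 (CRCT1) times the mean of NP replicates 2 and 3, and NP replicate 3 was the lowest in 8 of 9. The median of this ratio was 5.71 over the 9 genes and 0.844 over all genes tested. The ratio was 5.29 over the other squamous differentiation genes and 2.71 over smooth muscle markers. It was 0.357 over columnar and secretory markers. Among these markers, FOXA2, a factor of glandular epithelium, was at 0.0650 TPM in NP replicate 1 and at 11.7 and 6.40 TPM in the other 2, and the mucin MUC5B was at 9.86 TPM against 102 and 115 TPM, both picked out after their values were seen. KRT7, a keratin of simple epithelium, went the other way, at 442 TPM against 241 and 202, and so did the mucin MUC4, at 107 TPM against 66.9 and 55.6. The summed columnar markers were at 706 TPM in NP replicate 1 and at 724 and 594 TPM in the others. The part of these differences in the levels above was not tested. Against the mean of the other 2 NP animals the MT means were at 0.413% (RHCG) to 80.2% (SFN), where they were at 0.143% to 35.2% of the mean of all 3.

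In the sum of 8 smooth muscle markers the NP animals ranged from 8168 to 30770 TPM, the MT animals from 12620 to 18990 and the LT animals from 19040 to 39440. None of the 8 was called from NP to MT (limma, with 0 at an unadjusted p under 0.05 and 0 calls by edgeR and DESeq2), 1 was higher from MT to LT and 1 from NP to LT, beside 6.73% and 11.2% of all genes. Without NP replicate 1 these numbers were 4 and 6, and the median log2 difference from NP to LT was 1.14 in place of 0.74. The first was 0 without any 1 MT animal or LT replicate 3 or 4, and the second was 0 without NP replicate 2 or 3, any 1 MT animal or LT replicate 3 or 4, and 2 without LT replicate 1. The sum of 11 columnar and secretory markers ranged from 594 to 724 TPM in NP, from 2711 to 4997 in MT and from 7188 to 8866 in LT. The gap between MT and LT came from AGR2, a protein folding enzyme of secretory cells, at 1250 to 2904 TPM in MT and 5547 to 7559 in LT. Without it the sums were 455 to 603 TPM in NP, 1461 to 2302 in MT and 1307 to 1744 in LT. Of the 8 markers that were tested, 6 were higher and 1 was lower in MT than in NP, and 6 were higher and 2 lower in LT than in NP, where 6.27% and 11.2% of all genes tested were higher and 12.2% and 41.9% lower. In LT 1 was higher than in MT, where 6.73% of all genes were, and the median log2 difference was -0.17, against -0.16 over all genes. Without NP replicate 1 or with only the 2 stages compared, 3 of the 8 were lower in LT than in MT. The 5 pan-epithelial markers summed to 781 to 884 TPM in NP, 835 to 982 in MT and 916 to 1065 in LT. Leukocyte markers summed to 4545 to 8396 TPM in NP, 9038 to 13380 in MT and 15000 to 19350 in LT, of which 1 of 10 tested genes was higher in MT than in NP, 3 were higher in LT than in MT, where 6.73% of all genes were, and 4 were higher and 1 lower in LT than in NP. The sum was carried by S100A8 and S100A9, calcium-binding proteins of neutrophils that keratinocytes can also make. Without them the other 11 markers summed to 92.9 to 204 TPM in NP, 102 to 118 in MT and 141 to 237 in LT, so that NP overlapped both stages of pregnancy. The median log2 differences of the 10 genes were -0.04, 0.13 and -0.11 in the 3 comparisons. Fibroblast markers summed to 5218 to 10660 TPM over all animals. Of these 6, 1 was lower from NP to MT, 1 was higher and 2 lower from MT to LT, and 3 were lower from NP to LT. Endothelial markers summed to 44.6 to 149 TPM, with 1 of 5 lower from NP to MT and 5 of 5 lower both from MT to LT, where 22.7% of all genes were lower, and from NP to LT, where 41.9% were. The endothelial count from MT to LT was 2 without MT replicate 2 or 3 and 3 without LT replicate 3 or 4, after median-ratio scaling or with edgeR. The fibroblast markers lower from MT to LT were 1 without MT replicate 2 or 3 or LT replicate 2 or 4, after median-ratio scaling or with edgeR. From NP to MT the endothelial count was 0 without NP replicate 2 or 3, any 1 MT animal or LT replicate 2, and that of fibroblast markers was 0 without NP replicate 2 or 3, any 1 MT animal or LT replicate 1. Without NP replicate 1, 4 of the 10 leukocyte markers were lower in LT than in NP, and 3 were lower in MT than in NP. Columnar RNA was thus higher in both stages of pregnancy, in which the 5 genes that stayed low were low. Its part in them was not tested.

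**Figure D2:**
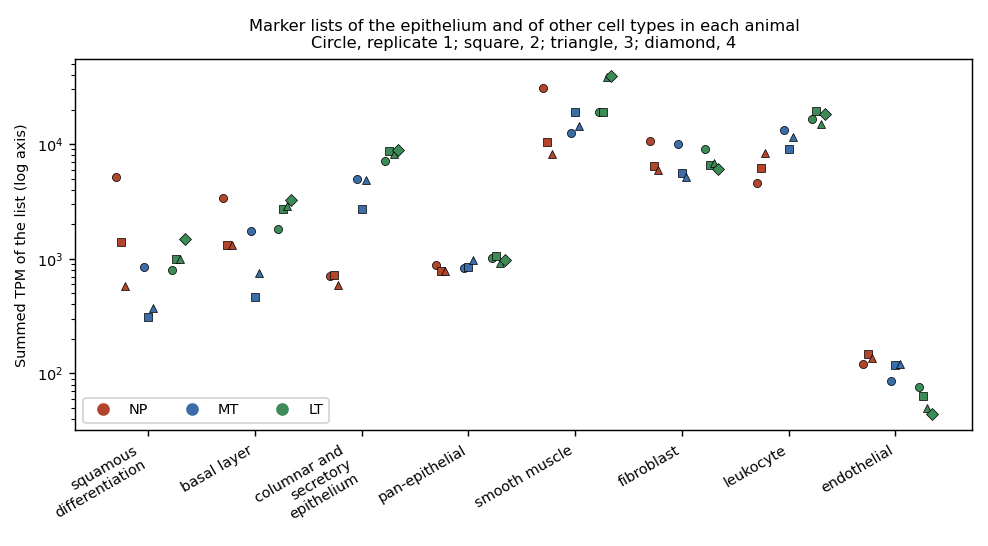
Summed TPM of marker lists (log vertical axis) in each animal, for the epithelial layers and other cell types of the cervix. Columnar and secretory markers are at 594 to 724 TPM in NP and at 7188 to 8866 TPM in LT, while the squamous differentiation list is highest in NP replicate 1 (5218 TPM) and otherwise between 309 and 1486 TPM.

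The other genes of squamous differentiation were read from lists of cornified envelope proteins, crosslinking and barrier lipid enzymes, and suprabasal keratins. Of 78 such genes 33 had a row and 22 were tested. From NP to MT 11 of the 22 fell and none rose, where 12.2% of all genes tested were called lower and 6.27% higher. The median log2 difference was -1.57, and it was -0.85 over the 33 genes with no filter and -0.96 without NP replicate 1. From NP to LT 10 fell and 2 rose, where 41.9% of all genes were lower and 11.2% higher, with a median of -1.11, and of -0.65 without NP replicate 1 and -1.73 without NP replicate 3. From MT to LT 1 rose and none fell, where 6.73% were higher and 22.7% lower, with a median of 0.41, and of 0.10 with no filter and 0.62 without MT replicate 1. The number lower from NP to MT was 4 without NP replicate 2, 3 without MT replicate 2, 4 without MT replicate 3, and 7 without any 1 of the LT animals. It was 7 after median-ratio scaling and 9 with edgeR. From MT to LT 4 rose and 2 fell without NP replicate 1, 2 rose without NP replicate 3, 3 without MT replicate 1 and none without MT replicate 2.

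Of 11 envelope proteins tested 6 fell from NP to MT and 5 were lower in LT than in NP, and of 7 enzymes 4 and 4, beside 12.2% and 41.9% of all genes, so that the shares in LT were near that of all genes. From NP to MT, 3 of the envelope proteins were called without NP replicate 2, MT replicate 2 or MT replicate 3, and 0 or 1 of the enzymes without NP replicate 2 or any 1 MT or LT animal. The count of enzymes from NP to LT was 2 without MT replicate 2 or LT replicate 1, 3 or 4. Involucrin (IVL), the first scaffold of the cornified envelope, was at 118, 30.9 and 10.6 TPM in NP, at 2.29, 3.20 and 2.16 in MT and at 0.553, 1.12, 0.257 and 0.185 in LT. It fell from NP to MT (log2 difference -3.33, adjusted p = 0.00864, limma) and was lower in LT than in NP (-4.57, adjusted p = 0.000378). The MT to LT difference of -1.24 did not pass the test (adjusted p = 0.149). SBSN, the secreted suprabasal protein suprabasin, fell by 4.89 on the log2 scale from NP to MT (adjusted p = 0.00395) and was lower in LT than in NP as well (log2 difference -4.39, adjusted p = 0.00118). SPRR3, a small proline-rich envelope protein, had no read in any LT animal (adjusted p = 0.00186 from NP), which puts its LT level at least 45.1-fold below its NP mean and at least 16.1-fold below that of NP replicates 2 and 3. These calls from NP to LT were made under all 19 alternative settings, which change the scale, the filter, the tool, the model or the animals.

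TGM1, the transglutaminase that crosslinks the envelope, was at 135, 34.5 and 7.66 TPM in NP, at 3.25, 1.25 and 3.17 in MT and at 8.27, 9.45, 5.93 and 9.23 in LT. It fell from NP to MT (log2 difference -3.34, limma adjusted p = 0.0157), with an adjusted p of 0.0536 without MT replicate 2 and 0.0662 with only the 2 stages compared, and it was not called on the square-root scale either. All 4 LT animals were above the 3 MT animals, and the MT to LT difference of 1.41 did not pass the test (adjusted p = 0.159). KRT78, a keratin of upper squamous layers, showed the same order, with NP, MT and LT means of 82.7, 2.86 and 6.39 TPM. KRTDAP, a secreted keratinocyte peptide, differed from NP to MT by -4.29 and from MT to LT by 3.46 (limma adjusted p = 0.0607 and 0.0727), and neither difference passed the test.

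Keratin 1 went the other way. KRT1 was at 7.35, 2.50 and 0.783 TPM in NP, at 55.0, 3.59 and 5.20 in MT and at 25.7, 36.2, 48.8 and 81.3 in LT, and was higher in LT than in NP by 3.59 (limma adjusted p = 0.00535, called in all 19 alternatives). KRT23 was likewise higher in LT than in NP, by 1.17 (adjusted p = 0.00226, also in all 19).

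**Figure D3:**
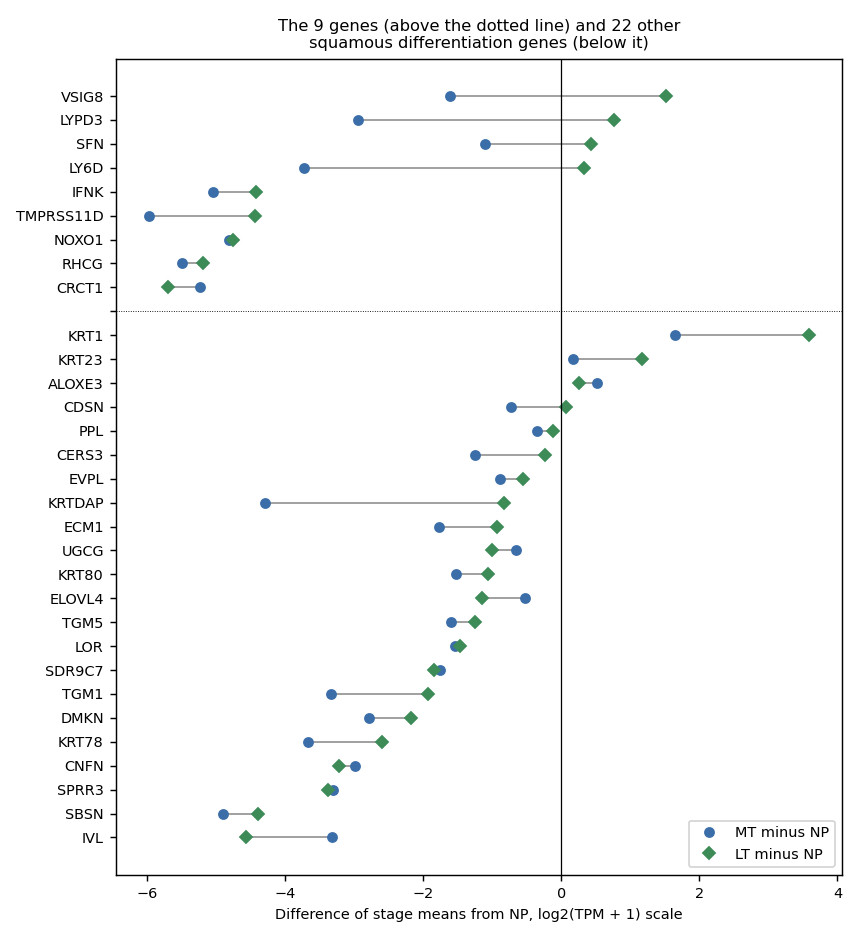
Differences of the MT (circles) and LT (diamonds) means from the NP mean on the log2(TPM + 1) scale, for the 9 genes above the dotted line and 22 other squamous differentiation genes below it. The LT marks of LY6D, LYPD3, SFN and VSIG8 lie between 0.32 and 1.52, those of the other 5 genes between -5.70 and -4.42, and those of IVL, SBSN and SPRR3 at -3.38 or lower.

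The basal layer lies under these cells. TP63, the master factor of stratified epithelium, was at 25.5 to 54.0 TPM in NP, 25.5 to 47.9 in MT and 29.0 to 47.4 in LT and was not called in any comparison. KRT14, the keratin of basal cells, was at 2825, 919 and 969.9 TPM in NP, at 1142, 133 and 369 in MT and at 1430, 2253, 2464 and 2803 in LT. It rose from MT to LT by 2.50 (limma adjusted p = 0.0184), with adjusted p-values of 0.0648 without MT replicate 2 and 0.0515 without MT replicate 3. Among 14 regulators of squamous differentiation, PRDM1, a repressor that acts in terminal keratinocytes, fell by 1.79 on the log2 scale from NP to MT (limma adjusted p = 0.00412, called in all 19 alternatives). KLF4, a barrier transcription factor, was higher in LT than in NP by 1.97 (adjusted p = 0.00169, in all 19). Of the 14 regulators 2 were called from NP to MT (1 higher, 1 lower), 3 from MT to LT and 3 from NP to LT (2 higher, 1 lower in each). GATA3 was the regulator higher from NP to MT, and this was lost without MT replicate 3. EHF was the regulator lower from MT to LT, and this was lost without MT replicate 1 or 2 or LT replicate 1 or 2. Of 8 basal layer genes 2 were called in each comparison, 1 higher and 1 lower. DST was the lower gene in all 3, and LAMB3 the higher gene from NP to MT and from NP to LT. Of all genes tested, 18.5%, 29.4% and 53.1% were called in either direction in these comparisons. From MT to LT the number of regulators called was 0 without MT replicate 2, 1 without MT replicate 3 or any 1 of LT replicates 2, 3 and 4, 4 without NP replicate 3 or LT replicate 1, and 6 without NP replicate 1. With only the 2 stages compared, 3 were higher and 4 lower. From NP to MT, 3 were higher and 1 lower after median-ratio scaling or with edgeR, and 4 and 1 with DESeq2. The NP to MT count of regulators was 4 without MT replicate 1, 3 without NP replicate 1 or LT replicate 1 and 1 without MT replicate 3, and that from NP to LT was 2 without NP replicate 3 or LT replicate 2 or 3. The basal layer count was 1 without NP replicate 2 or 3 and 3 without MT replicate 1 from NP to MT, and 1 without MT replicate 2 or 3 from MT to LT.

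LY6D and LYPD3 have many relatives, of which 7 of 14 with a row were tested. LY6G6C was at 299, 80.7 and 20.2 TPM in NP, at 186, 12.2 and 9.79 in MT and at 149, 448, 369.9 and 816 in LT, with MT replicate 1 again high. Its rise from MT to LT of 3.66 had a limma adjusted p of 0.0333, and between 0.0688 and 0.13 without MT replicate 2 or 3 or LT replicate 2, 3 or 4. It was also lost with edgeR (adjusted p = 0.108) and with no filter, over a range of 0.00237 to 0.13 in the 19 alternatives. PSCA, prostate stem cell antigen, rose from MT to LT by 2.77 (adjusted p = 0.0206), with adjusted p-values of 0.0533 to 0.0886 without MT replicate 2 or 3 or LT replicate 4, 0.0535 with edgeR and a range of 0.00117 to 0.0886 over the alternatives. It was higher in LT than in NP by 2.67 (adjusted p = 0.0126, and 0.0557 without NP replicate 3). SLURP1, the secreted member of epidermis, had means of 13.0 TPM in NP, 0.135 in MT and 1.99 in LT, an order like that of TMPRSS11D. Its fall from NP to MT (log2 difference -2.88, adjusted p = 0.0407) lost its call without NP replicate 1 or 2, any 1 MT animal or LT replicate 1 or 2, with adjusted p-values of 0.0505 to 0.106, and with several other settings, and was called under 6 of the 19. In the family 2 fell from NP to MT, 2 rose and 1 fell from MT to LT, and 1 rose and 1 fell from NP to LT, of 7 tested. Of all genes, 12.2% fell in the first comparison, 6.73% rose and 22.7% fell in the second, and 11.2% rose and 41.9% fell in the last. The number that fell from NP to MT was 0 without NP replicate 2, MT replicate 2 or 3, or LT replicate 1 or 2, and the number that rose from MT to LT was 0 without MT replicate 2 or 3 or LT replicate 4. The first was also 0 with no filter, over 13 genes, on the square-root scale, after median-ratio scaling and with only the 2 stages compared. The second was also 0 with edgeR, and 1 with no filter. In LT against NP none rose and 3 fell without NP replicate 3, and 2 rose and 1 fell without NP replicate 1 or MT replicate 1.

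TMPRSS11D was compared with 10 tested membrane serine proteases and their inhibitors. TMPRSS11B, its close relative, was at 93.9, 22.3 and 4.67 TPM in NP, at 0.944, 0.0519 and 0.229 in MT and at 4.59, 3.21, 5.93 and 11.3 in LT. It fell by 4.09 on the log2 scale from NP to MT (limma adjusted p = 0.00951, called in all 19 alternatives). The rise from MT to LT of 2.30 (adjusted p = 0.0486) lost its call without NP replicate 2, MT replicate 1, 2 or 3 or any 1 LT animal, with adjusted p-values of 0.062 to 0.146, and on the square-root scale (0.323), with no filter and after median-ratio scaling. TMPRSS11A, another gene of the same family picked out here after its values were seen, stayed abundant throughout, at 94.0 to 371 TPM in NP, 105 to 284 in MT and 323 to 518 in LT. It was higher in LT than in NP by 1.31 (adjusted p = 0.0344), with adjusted p-values of 0.0507 to 0.141 without NP replicate 2 or 3 or LT replicate 2, 3 or 4, and lost its call with edgeR (0.0668) and with no filter. TMPRSS11E, the other gene of the family with a row, was low in every animal, at 0.705 to 2.15 TPM in NP, 0.210 to 0.428 in MT and 0.0919 to 0.361 in LT, and was not tested. How reads that fit several copies were handled is not given in the sources used here, so the levels of these related genes could be affected by it. In this list 2 of 10 fell from NP to MT, 2 rose from MT to LT, and 1 rose and 1 fell from NP to LT, beside 12.2% of all genes lower, 6.73% higher, and 11.2% higher and 41.9% lower. These counts rested on single animals as well. Leaving out MT replicate 1 gave 4 that fell from NP to MT, and leaving out MT replicate 2 or 3 gave 1. Between MT and LT none rose without MT replicate 2 or 3, 1 rose without NP replicate 2 or any 1 LT animal, and 3 rose without NP replicate 1 or 3. Between NP and LT none rose without NP replicate 2 or 3 or LT replicate 2, 3 or 4. With no filter, over 18 genes, 4 fell from NP to MT, and none rose and 5 fell from NP to LT. After median-ratio scaling 3 rose and 1 fell from NP to LT.

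NOXO1 works with NOX1, the catalytic subunit, and NOXA1, the activator. NOX1 was at 16.0, 4.12 and 1.33 TPM in NP, and at 0 or 1 read in every pregnant animal. It was lower in MT than in NP (log2 difference -2.54, limma adjusted p = 0.0149, 0.0509 without MT replicate 3, and also lost with only the 2 stages compared) and in LT than in NP (-2.54, adjusted p = 0.00343, called in all 19 alternatives). NOXA1 was at 16.1 to 32.6 TPM in NP, 15.4 to 27.3 in MT and 22.7 to 29.5 in LT and was not called in any comparison. DUOX1, a separate oxidase of surface epithelia, fell by 1.82 on the log2 scale from NP to MT (limma adjusted p = 0.0106, in all 19). Of 7 oxidase genes tested, 2 fell from NP to MT, 1 rose from MT to LT, and 1 rose and 2 fell from NP to LT, where 12.2% of all genes were lower from NP to MT, 6.73% higher from MT to LT, and 11.2% higher and 41.9% lower from NP to LT. Without MT replicate 3 only 1 fell from NP to MT, while 3 fell when NP replicate 1 or MT replicate 1 was left out. None rose from MT to LT without MT replicate 2 or 3, and none rose from NP to LT without NP replicate 1 or 3 or LT replicate 2. The organizer and its catalytic partner were thus low together in pregnancy while the activator had overlapping animals in all 3 stages.

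**Figure D4:**
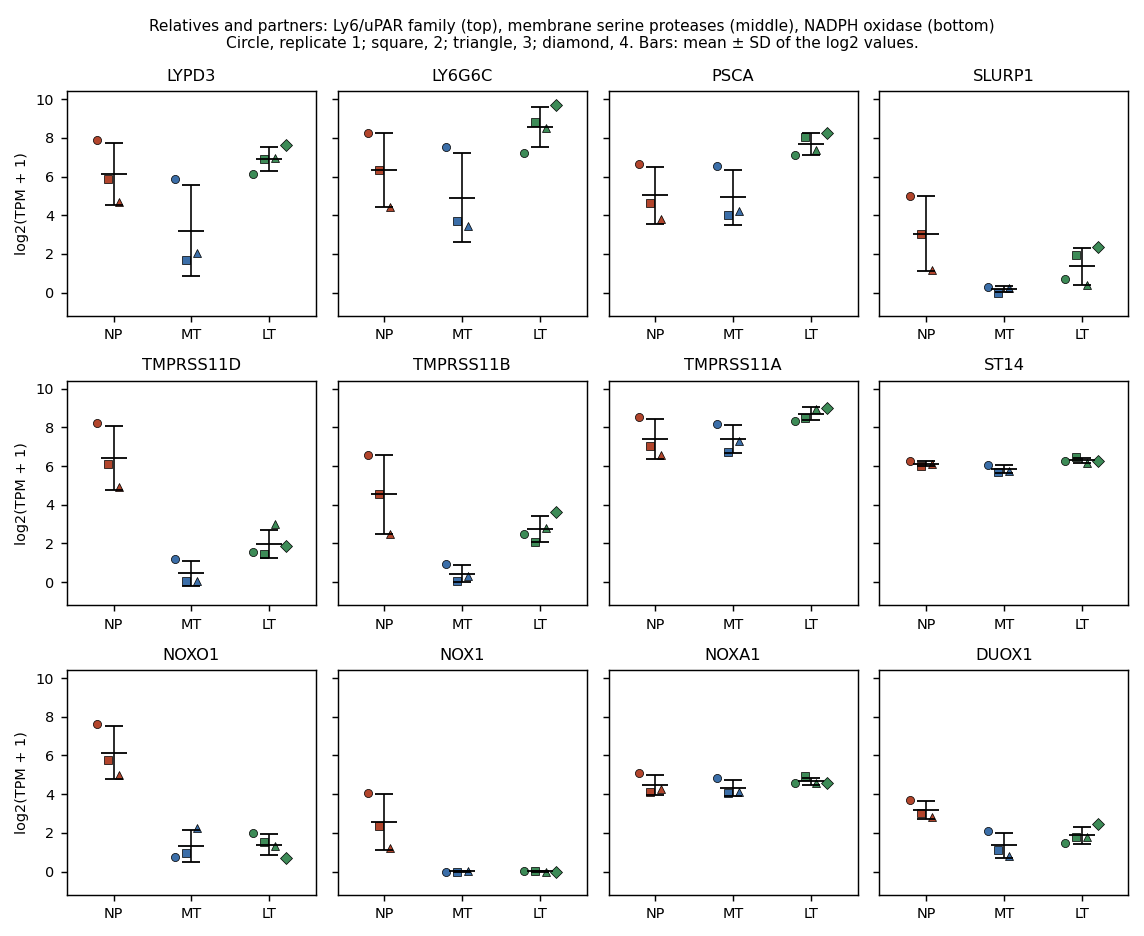
Levels of relatives and partners of LYPD3, TMPRSS11D and NOXO1 in each animal, as log2(TPM + 1), with NP, MT and LT on the horizontal axis and bars for the mean ± SD of the log2 values. TMPRSS11A (94.0 to 518 TPM) and NOXA1 (15.4 to 32.6 TPM) remain abundant in all 3 stages, while TMPRSS11B and NOX1 are near 0 in MT.

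Limma called 0 of the 5 other 14-3-3 genes, the relatives of SFN, in each comparison, and 1, 2 and 0 of them had an unadjusted p under 0.05 from NP to MT, MT to LT and NP to LT. On the read counts edgeR called 0, 4 and 3 of them, where it called 18.0%, 29.0% and 49.4% of all genes, and DESeq2 called 0, 5 and 4, where it called 24.7%, 36.1% and 53.6%. After median-ratio scaling limma called 0, 4 and 4, all higher. Their median log2 difference from MT to LT was 0.15, against 1.53 in SFN. YWHAZ, for example, was at 502 to 645 TPM in NP, 426 to 507 in MT and 553 to 699 in LT. VSIG2 was higher in pregnancy, going from 0.438, 0.897 and 1.81 TPM in NP to 47.1, 65.5 and 66.9 in MT and 38.7, 33.3, 19.0 and 17.1 in LT (log2 difference 4.93 from NP to MT, limma adjusted p = 4.52e-05, in all 19 alternatives). VSIG4, a receptor of macrophages, was higher in LT than in NP by 1.93 (adjusted p = 0.000349, in all 19). Of the 4 VSIG genes tested 1 was called from NP to MT, 2 from MT to LT and 3 from NP to LT, beside 18.5%, 29.4% and 53.1% of all genes. The first number was 2 without NP replicate 3 or MT replicate 1, and the second was 1 without MT replicate 2 or 3 or LT replicate 3 or 4. RHBG and RHAG, the 2 relatives of RHCG with a row, were at 1.83 TPM or less in every animal and were not tested.

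IFNK signals through the receptor of all type I interferons, IFNAR1 and IFNAR2, and the transcription factor STAT2 acts downstream of it. STAT2 was at 91.2, 61.1 and 65.1 TPM in NP, at 32.6, 32.1 and 23.8 in MT and at 33.6, 33.2, 25.0 and 26.4 in LT. It was lower in both stages of pregnancy (log2 difference -1.26 in each, limma adjusted p = 0.00235 in MT and 0.00042 in LT, in all 19 alternatives). The receptor genes and kinases differed less. IFNAR1 was lower by 0.53 in MT and by 0.63 in LT than in NP (adjusted p = 0.0174 and 0.00172, the first not called without NP replicate 3 or MT replicate 1). IFNAR2 was not called in any comparison (-0.45 from NP to MT, adjusted p = 0.0832). From NP to MT the kinases JAK1 and TYK2 were not called either (-0.18 and -0.47, adjusted p = 0.332 and 0.0877), and both were lower in LT than in NP (-0.67 and -0.97, adjusted p = 0.00142 and 0.00106), where 41.9% of all genes were lower. JAK1 was also lower in LT than in MT (-0.48, adjusted p = 0.0155, and 0.0688 without MT replicate 2), and so was TYK2 (-0.50, adjusted p = 0.0446), which was called in 4 of the 19 alternatives. IRF9, the partner of STAT2, was lower by 0.36 in MT and by 0.40 in LT (adjusted p = 0.0217 and 0.00323), neither of which was called with edgeR, and the first of which was not called without NP replicate 3 or MT replicate 3.

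Of 14 interferon-stimulated genes, 11 fell and none rose from NP to MT, and 12 fell and none rose from NP to LT, where 12.2% and 41.9% of all genes tested were lower. Between MT and LT 2 rose, where 6.73% of all genes were higher. That number was 0 without MT replicate 1 or 3 or LT replicate 2 or 3 and on the square-root scale, 1 without NP replicate 2, MT replicate 2 or LT replicate 1 or 4, and 4 without NP replicate 1. RSAD2, the antiviral enzyme viperin, was at 152, 37.7 and 10.04 TPM in NP, at 1.70, 2.92 and 0.951 in MT and at 3.02, 3.58, 2.63 and 2.26 in LT (log2 difference -3.88 from NP to MT, limma adjusted p = 0.00723, and -3.39 from NP to LT, adjusted p = 0.00268, both in all 19 alternatives). The mean log2 level of the 14 genes was 6.23, 4.96 and 4.30 in NP, 3.48, 3.71 and 3.36 in MT and 3.99, 4.07, 3.87 and 3.71 in LT. The order of the NP animals was that of IFNK, and also that of the squamous differentiation list (mean log2 5.69, 4.25 and 3.22). Within pregnancy the orders differed. In MT, IFNK was highest in replicate 1 and the mean of the 14 genes in replicate 2. In LT, IFNK was lowest in replicate 3 and the mean of the 14 genes in replicate 4. In both IFNK and that mean, every pregnant animal was below every NP animal. The number lower from NP to MT was 6 or 7 without NP replicate 2 or any 1 MT animal, 7 after median-ratio scaling and 4 with only the 2 stages compared. For NP to LT it was 7 without NP replicate 1 (with 1 gene higher), LT replicate 3 or LT replicate 4, and 4 after median-ratio scaling.

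**Figure D5:**
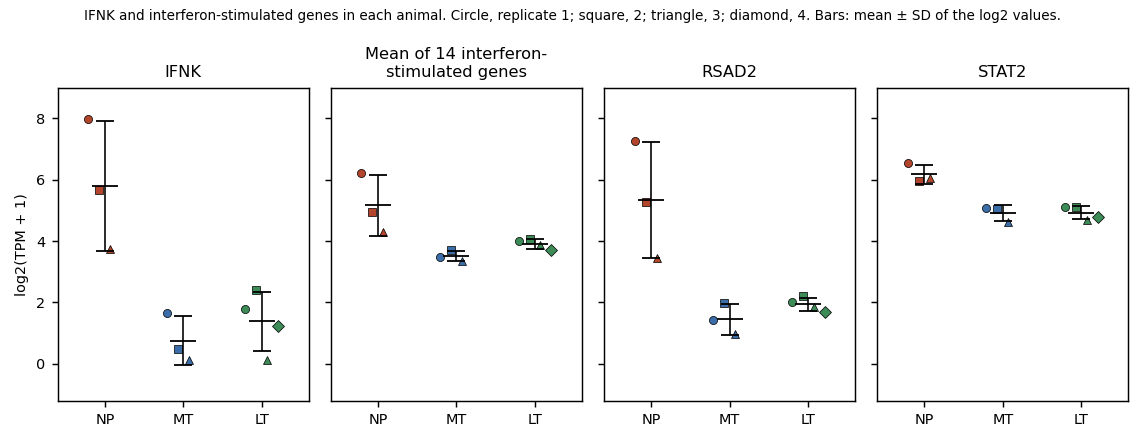
IFNK, the mean of 14 interferon-stimulated genes, RSAD2 and STAT2 in each animal, as log2(TPM + 1), with bars for the mean ± SD of the log2 values. The NP animals lie above all MT and LT animals in each panel, and NP replicate 1 is the highest.

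The 9 genes were also set beside every named gene that was tested, by the mean absolute difference over the 10 animals between log2 levels centred on their own means. Among themselves the closest pairs were CRCT1 and RHCG (0.375), RHCG and NOXO1 (0.417) and LY6D and LYPD3 (0.472), and the farthest was LYPD3 and CRCT1 (2.71). Outside the 9, IL1A, the interleukin 1 alpha gene of keratinocytes, was the nearest of 11402 genes to 3 of them, at 0.282 for RHCG, 0.472 for CRCT1 and 0.493 for TMPRSS11D. IFNK had SBSN as its nearest gene (0.55) and NOXO1 had IL8 (0.52). LY6D, LYPD3, SFN and VSIG8 had other neighbours, namely KRT14 for LY6D (0.767), LY6G6C for LYPD3 (0.65), HMGCS1, an enzyme of cholesterol synthesis, for SFN (0.206), and ADAMTS8 for VSIG8 (0.511). The 8 genes nearest to the mean profile of the 9 were IL1RN (0.321), TGM1, SPINK5, DHRS9, KRT78, DMKN, TMPRSS11B and PRSS27 (0.514). The animals share their libraries in this measure, and it is a description only.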

How the data were processed

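RNA-seq data of 10 cervix samples (3 NP, 3 MT, 4 LT) were analysed from 1 table. For each Ensembl gene the deposited values are a read count and a TPM. Per the labels and the submitters' processing notes, polyA RNA was sequenced in a strand-specific way, base calls were made with CASAVA 1.8.2, reads were aligned with TopHat2 to the cavPor3 genome, the authors counted reads with HTSeq (0.5.4p1), and the TPM values were made by the authors from these counts. TPM sums to 1000000, so each value also depends on all other genes. The genes lack positions here, and no sequence was used.

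Groups came from the sample titles. All 10 animals entered 1 fit of limma 3.58.1 (R 4.3.3, trend) on log2(TPM + 1) with stage as the only term, over the 12645 genes whose stage mean reached 3 TPM once or more, with two-sided tests and Benjamini-Hochberg adjustment. The alternatives were a pseudocount of 0.1 TPM, square-root TPM, no filter, median-ratio scaling, edgeR 4.0.16 (quasi-likelihood) and DESeq2 1.42.0 on the deposited counts, only the 2 stages compared, a replicate block, and each animal left out. The joint removal of NP and MT replicate 1 was added after the values were seen. The fits were run on simulated data with planted changes, where limma and edgeR had to keep false calls low. DESeq2 was not held to that limit, since it made more false calls with this number of animals. The p-values measure the spread between these animals within their stages. Litter and batch are not given, and a difference between stages in batch or collection could not be told apart from stage.

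The 9 genes, the gene lists and the rules were chosen with earlier results of these data known. Besides the 9, the genes named are up to 3 per list and comparison with the largest called difference without overlap, all genes of lists with 8 or fewer, and the nearest genes by profile. KRTDAP, FOXA2, MUC5B, KRT7, MUC4, TMPRSS11A and TMPRSS11E fall outside this rule and were named after their values were seen. A gene of the interferon signalling list is not reported here, and no count is given for that list.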

Additional observations from a re-analysis of the deposited data

Results flagged for a closer look

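In each stage with 4 or more animals, which is LT alone, the extreme animal was compared with the rest in 120 genes, which are the 9 genes, the genes that the naming rule takes from the lists, the nearest genes by profile and the tested genes of the small lists. It stood apart in 4 of them. The genes share the same animals and many were picked by their values, so this count cannot be set against a rate given by chance. VSIG8 was at 4.28 TPM in LT replicate 1, far below the next animal at 47.5 TPM. TMPRSS11D was at 7.13 TPM in LT replicate 3, above the next animal at 2.61 TPM. LY6H, a relative of LY6D, was at 25.8 TPM in LT replicate 1, with the next animal at 9.38 TPM. NOXA1 was at 29.5 TPM in LT replicate 2, with the next at 23.1 TPM.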

How the results depend on the processing

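Of the genes tested, 2342 were called from NP to MT (793 higher, 1549 lower), 3723 from MT to LT (851 and 2872) and 6718 from NP to LT (1417 and 5301). After median-ratio scaling these were 2282 (1378 and 904), 3716 (1848 and 1868) and 6285 (3330 and 2955), so the direction of small differences depends on the scaling, by which the median of all genes moved to between -0.003 and 0.028. With only the 2 stages compared, 1113 were called from NP to MT, and 3981 with NP and MT replicate 1 both left out. Leaving out each animal gave 1100 (without MT replicate 3) to 4174 (without NP replicate 1) calls from NP to MT, 1946 (without MT replicate 2) to 5323 (without NP replicate 1) from MT to LT, and 5304 to 7726 from NP to LT. On the square-root scale no log2 difference is given.

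Of the 22 other squamous differentiation genes, 11 were called from NP to MT, and 4 on the square-root scale, 7 after median-ratio scaling, 2 with only the 2 stages compared and 3 to 14 with each animal left out. From MT to LT 1 was called, and 2 with a pseudocount of 0.1 TPM, 3 with DESeq2, 6 with only the 2 stages compared, 8 with NP and MT replicate 1 both left out and 0 to 6 with each animal left out. From NP to LT 12 were called, and 10 to 15 with each animal left out. The median log2 difference of the 9 genes was -5.39 to -3.96, 1.14 to 1.89 and -5.19 to -3.33 in the 3 comparisons with each animal left out, and -3.33 from NP to LT with NP and MT replicate 1 both left out. Each gene kept its direction from NP to MT under the alternatives run. From MT to LT, CRCT1 was -0.69 to 0 with each animal left out and 0 with both first replicates left out, and NOXO1 was -0.23 to 0.52 and -0.23. From NP to LT, LY6D was -0.20 to 0.83 and SFN -0.29 to 1.23. Of 149 calls on the 140 listed genes tested, 63 were made under all 19 alternatives and 0 changed direction in any.

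The correlation of the deviations of animals with the same number ranged from -0.287 to 0.254 over 9 pairs, 3 of which were over 0.1. Between NP and MT it was 0.254, 0.162 and 0.076, so the numbers were not taken to pair the animals, and 4 of 6 animals correlated best with their own number between NP and MT, 2 of 6 between MT and LT and 0 of 6 between NP and LT. With the replicate number as a block, 803 genes were called from NP to MT, 2343 from MT to LT and 3488 from NP to LT, and 6, 1 and 7 of the 22 squamous genes. Where the main fit called 1 rise from MT to LT among these 22, the block called 1 fall, of an envelope protein. Of the 14 interferon-stimulated genes 3 were then lower from NP to MT and 4 from NP to LT. The block also ended the calls of TGM1, NOX1, SLURP1, IFNAR1 and IRF9 from NP to MT (adjusted p = 0.0621, 0.0709, 0.078, 0.066 and 0.121), of TMPRSS11A and IRF9 from NP to LT (0.117 and 0.0752) and of KRT14, PSCA, LY6G6C, JAK1 and TYK2 from MT to LT (0.082, 0.0654, 0.112, 0.0513 and 0.109), and left 0 of the 14 regulators and 0 of the 4 VSIG genes called from MT to LT. Depth limits CRCT1, RHCG, IFNK, TMPRSS11D, LY6D and NOXO1 in MT, where 1 or more animals have 27 reads or fewer. The same holds in LT for CRCT1, RHCG, IFNK and NOXO1. LYPD3 and VSIG8 had 31 reads in their lowest MT animal.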
